A study of Mus musculus with 24 samples.

Results

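Genes of the MHC class I pathway were followed across 24 arrays of mouse mammary gland. The 10 members were *H2-K1*, *H2-D1*, *B2m*, *Tap1*, *Tap2*, *Tapbp*, *Psmb8*, *Psmb9*, *Psmb10* and *Nlrc5*, taken by gene name. Every probe that the array names for 1 of these genes was kept, which gave 13 of the 55681 probes that are not controls and 10 of 34797 gene names. *H2-K1*, *Psmb9* and *Nlrc5* had 2 probes each, and where 1 value is given for such a gene it is that of its brighter probe, called probe 1.

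The study exposed female mice aged 8 to 9 weeks to 10 cGy of whole-body X-rays, a low dose of ionizing radiation (LDIR), or gave them a sham exposure (sham), and profiled total RNA of the mammary gland on Agilent arrays of 1 colour. BALB/c, an inbred laboratory strain described as sensitive to radiation-associated mammary cancer, gave glands 2, 4 or 8 weeks after the LDIR or sham exposure. SPRET/EiJ, an inbred strain from wild *Mus spretus* described as resistant, was sampled at 4 weeks. Each of the 8 groups held 3 mice, 1 array per mouse, and no allele or transgene was added in any group; the number of arrays limits the precision.

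MHC class I molecules carry peptides from inside the cell to its surface, where CD8 T lymphocytes inspect them. *H2-K1* and *H2-D1* encode class I heavy chains, which need the light chain encoded by *B2m*; the TAP transporter (*Tap1*, *Tap2*) brings peptides into the endoplasmic reticulum and tapasin (*Tapbp*) helps load them. *Psmb8*, *Psmb9* and *Psmb10* are catalytic subunits of the immunoproteasome that take the place of *Psmb5*, *Psmb6* and *Psmb7*, and *Nlrc5* encodes a transactivator of class I genes. Nearly every nucleated cell makes class I, leukocytes more than most, so that bulk gland reads resident cells and any lymphoid tissue in the sample together.

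The probe coordinates in the array files are on mouse build mm9; the exon or untranslated region under each probe was not analysed here. *H2-K1* probe 1 lay at chr17:34133055-34133114 and probe 2 at chr17:34133984-34134043, both on the minus strand, and *H2-D1* at chr17:35403886-35403945 on the plus strand. On the same chromosome lay *Tapbp* (chr17:34065963-34066022, plus), *Psmb9* probe 1 (chr17:34319174-34319233, minus), *Psmb9* probe 2 (chr17:34322762-34322821, minus), *Tap1* (chr17:34330854-34330913, plus), *Psmb8* (chr17:34337771-34337830, plus) and *Tap2* (chr17:34353116-34353175, plus). *B2m* was read at chr2:121978401-121978460 (plus), *Psmb10* at chr8:108459677-108459736 (minus), *Nlrc5* probe 1 at chr8:97051105-97051164 (plus) and *Nlrc5* probe 2 by a 60-base probe placed over the 147 bases of chr8:97030478-97030624. Of these probes, *H2-K1* probe 2 shared runs of at least 20 bases with probes of 2 other names on the array, the class I-like gene *H2-T23* (a run of 29 bases) and *LOC100044874* (a run of 22 bases), and the other 12 member probes shared none. Probes were compared with probes only, so matches to other parts of a transcript were not tested. The member probes stood well above background on each of the 24 arrays, except *Psmb9* probe 2, which was so on 21.

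Class I genes are known to share a promoter block, and 5 promoters are shown: those of both heavy chains and the light chain, which the block is known for, and 1 each of the transporter and the immunoproteasome, *Tap1* and *Psmb8*. The windows are 300 bases around the RefSeq start site, chiefly upstream of it, on build GRCm38.p6, a reference that is neither BALB/c nor SPRET/EiJ; 8 of the 10 members matched, and *Tap2* and *Nlrc5* did not. Capitals mark matches, on either strand, to the kappa B site GGGATTCCC, to GAANNGAAA and GAAANNGAA of interferon regulatory factors, to the interferon gamma activated site TTCNNNGAA, to TGACG and to CCAAT. The *H2-K1* window lies at chr17:34000298-34000597 (minus strand), *H2-D1* at chr17:35262844-35263143 (plus), *B2m* at chr2:122147437-122147736 (plus), *Tap1* at chr17:34187306-34187605 (plus) and *Psmb8* at chr17:34197945-34198244 (plus).
H2-K1: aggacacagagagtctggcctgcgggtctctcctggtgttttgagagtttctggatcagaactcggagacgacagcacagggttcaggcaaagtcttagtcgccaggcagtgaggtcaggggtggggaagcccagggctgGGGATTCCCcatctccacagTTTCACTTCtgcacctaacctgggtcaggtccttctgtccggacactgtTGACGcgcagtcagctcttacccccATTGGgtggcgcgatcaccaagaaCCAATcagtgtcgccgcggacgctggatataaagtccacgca
H2-D1: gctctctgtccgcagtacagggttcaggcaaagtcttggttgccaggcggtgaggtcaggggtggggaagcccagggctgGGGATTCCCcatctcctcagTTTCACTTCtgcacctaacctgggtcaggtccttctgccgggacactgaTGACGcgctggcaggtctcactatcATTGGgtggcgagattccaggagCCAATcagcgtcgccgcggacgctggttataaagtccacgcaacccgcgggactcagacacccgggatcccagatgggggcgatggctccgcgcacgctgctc
B2m: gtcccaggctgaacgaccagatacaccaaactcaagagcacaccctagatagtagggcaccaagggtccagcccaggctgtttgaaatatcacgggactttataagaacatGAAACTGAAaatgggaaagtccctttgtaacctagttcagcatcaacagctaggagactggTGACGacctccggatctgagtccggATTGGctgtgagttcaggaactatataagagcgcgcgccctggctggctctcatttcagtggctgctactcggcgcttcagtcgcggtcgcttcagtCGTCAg
Tap1: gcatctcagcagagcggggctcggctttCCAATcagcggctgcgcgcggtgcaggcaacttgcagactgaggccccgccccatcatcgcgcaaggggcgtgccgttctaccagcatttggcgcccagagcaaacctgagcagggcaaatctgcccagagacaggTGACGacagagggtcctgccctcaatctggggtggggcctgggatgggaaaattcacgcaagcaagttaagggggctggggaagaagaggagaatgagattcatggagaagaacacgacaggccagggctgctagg
Psmb8: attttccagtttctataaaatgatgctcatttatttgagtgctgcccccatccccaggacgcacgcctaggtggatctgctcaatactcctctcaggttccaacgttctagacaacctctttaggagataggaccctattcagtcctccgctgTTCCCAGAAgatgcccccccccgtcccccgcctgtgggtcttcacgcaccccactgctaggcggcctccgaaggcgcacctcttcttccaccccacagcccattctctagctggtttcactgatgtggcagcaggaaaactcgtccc

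The kappa B letters stood in *H2-K1* and *H2-D1* alone of the 8 members, against 0.353% of 32851 mouse promoter windows. In both windows GAANNGAAA began 20 bases after the start of the kappa B letters, TGACG 69 bases after it and the nearer CCAAT 94 bases after it; GAANNGAAA was held by 7.52% of all windows. Aligned at an offset of 60 bases, the *H2-K1* and *H2-D1* windows were identical at 176 of 240 positions (73.3%). GAAANNGAA was found in *B2m* (8.56% of windows) and TTCNNNGAA in *Psmb8* (8.30% of windows). TGACG was found in *B2m*, *H2-D1*, *H2-K1*, *Psmb9* and *Tap1* (20.8% of windows), and CCAAT in those 5 and *Tapbp* (37.4% of windows). *Tap1* and *Psmb9* face away from each other, and their windows overlap by 275 bases. These letter matches describe the reference windows.

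Across the whole data set, saturation was not seen on any array, and no pair of arrays was so alike as to be a duplicate (highest r 0.989). The share of probes well above background ran from 57.1% (SPRET/EiJ 4-week LDIR C) to 72.6% per array, with 64.6% the next lowest. The negative-control signal was -13.8 on BALB/c 8-week sham A and between -4.62 and -2.09 on the others. The 24 arrays lay on 3 slides of 8: BALB/c at 2 weeks and sham A and B at 4 weeks on slide 1; the other 4-week BALB/c arrays, 8-week sham A to C and 8-week LDIR A on slide 2; 8-week LDIR B and C and all SPRET/EiJ arrays on slide 3. All 8 mammary epithelium and all 6 white adipocyte markers were well above background on all arrays, so the labelled tissue was present. Levels below are log2 signal relative to that array's own 75th percentile; they order arrays for 1 probe, not 1 gene against another.

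Of all arrays, 3 stood apart in these genes: BALB/c 8-week sham A, BALB/c 8-week LDIR B and SPRET/EiJ 4-week LDIR A. They also carried the highest lymphocyte and lymph node markers by a wide margin, and each lay in a different group. In sham A and LDIR B 8 of the 10 genes were above all other 16 BALB/c arrays, and in SPRET/EiJ LDIR A 7 of 10 were above the other 5 SPRET/EiJ arrays. For comparison, 35.2%, 13.2% and 23.5% of all probes did the same on the 3 arrays.

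**Figure D1:**
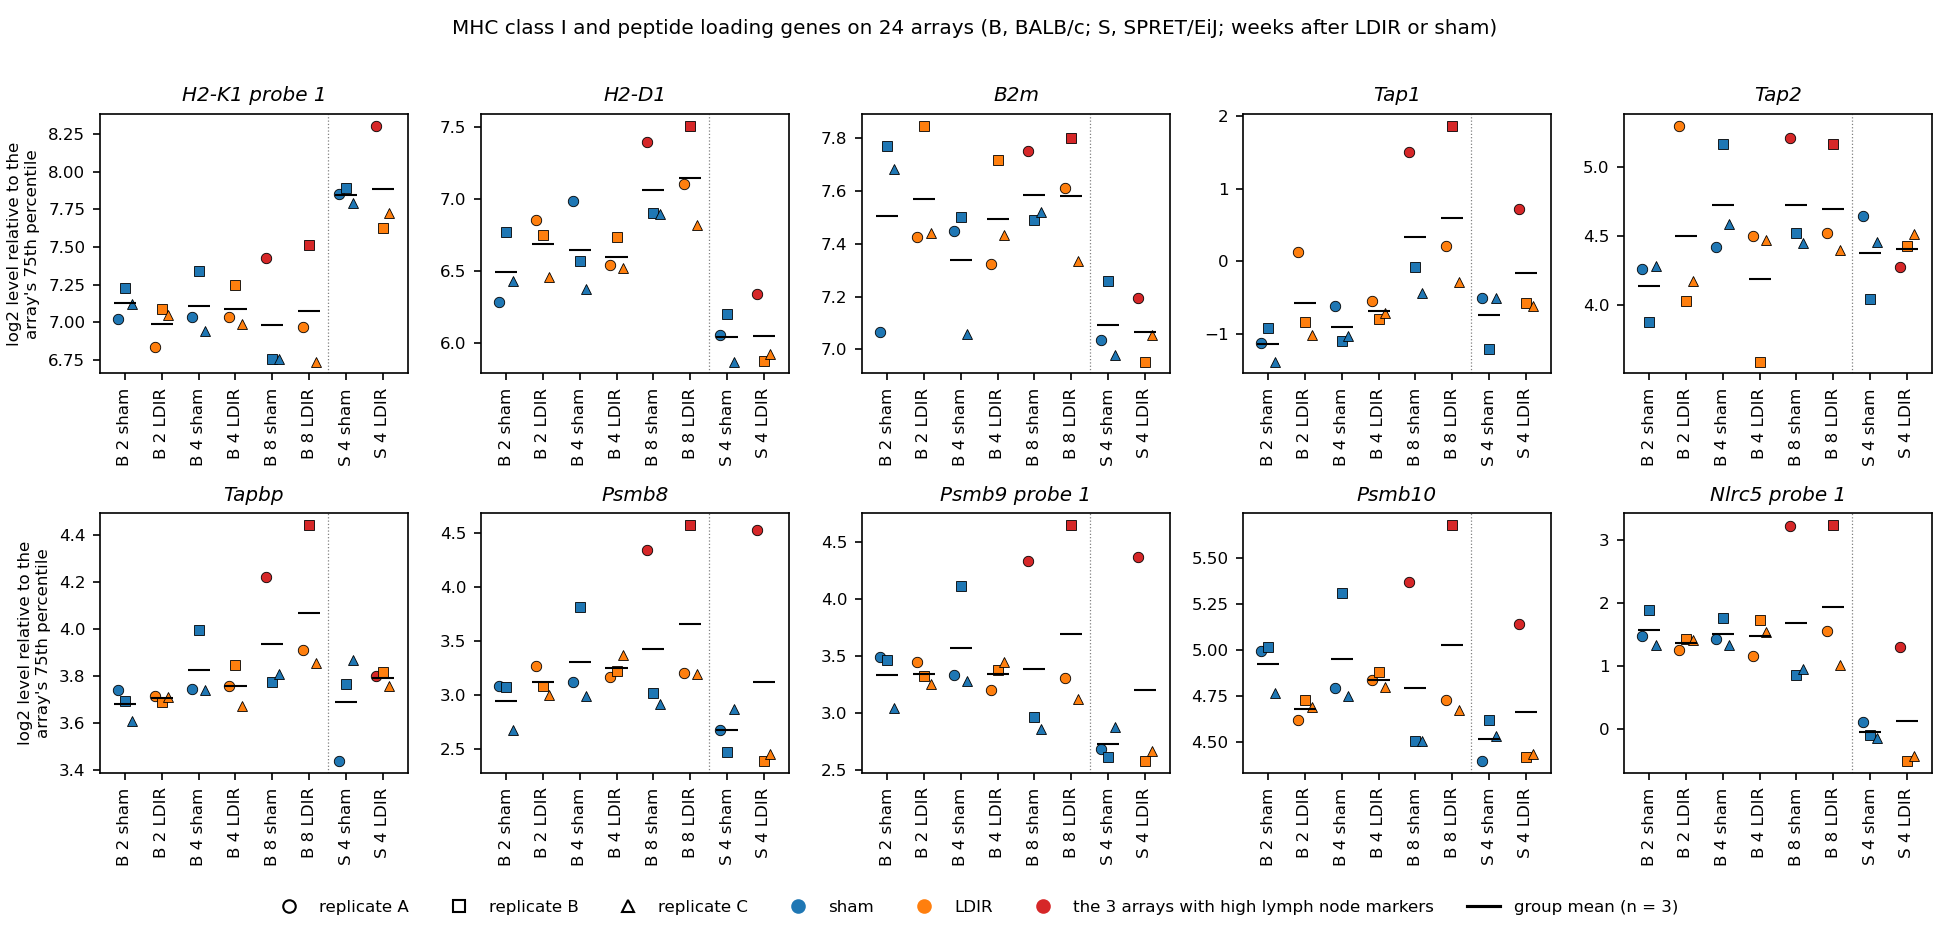
Log2 level of the brighter probe of each member gene (vertical axis, relative to the array's 75th percentile) on each of the 24 arrays, by group (horizontal axis); points are single arrays. BALB/c 8-week sham A, BALB/c 8-week LDIR B and SPRET/EiJ 4-week LDIR A stand above the others of their group in most panels, as in *Tap1* at 1.5, 1.87 and 0.72.

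Among the brighter probes, *Tap1* and *Nlrc5* stood farthest above the median of the other arrays in BALB/c, and *Psmb8* and *Psmb9* in SPRET/EiJ. *Psmb8*, a catalytic subunit, was at 4.35 in sham A and 4.58 in LDIR B, while the other 16 BALB/c arrays ran from 2.67 to 3.82 with a median of 3.10. In SPRET/EiJ LDIR A *Psmb8* was at 4.53 and the other 5 arrays of that strain ran from 2.39 to 2.87, which put it 4.15-fold above their median. No other array reached the level of these 3.

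*Psmb9*, the subunit whose gene lies head to head with *Tap1*, was at 4.34 and 4.65 on probe 1, over 2.86 to 4.11 in the other BALB/c arrays. In SPRET/EiJ LDIR A it was at 4.37, 3.25-fold above the median of the other 5 (2.58 to 2.88). Its dim probe 2 read -3.02, -3.12 and -2.81 on the 3 arrays, over -5.50 to -4.52 in the other BALB/c arrays and -6.61 to -4.75 in SPRET/EiJ, where 3 of the other 5 arrays were not well above background for it.

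*Psmb10*, the third subunit, was at 5.37 and 5.68 against 4.50 to 5.31 in the other BALB/c arrays. In SPRET/EiJ it was at 5.14 against 4.40 to 4.62. The BALB/c margin was narrow, since 4-week sham B reached 5.31. That array was also the highest of the other 16 for *Psmb8* (3.82), *Psmb9* (4.11) and *Tapbp* (4.00).

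The constitutive subunits *Psmb5*, *Psmb6* and *Psmb7* did not follow. *Psmb5* was at 5.23 and 5.22 in the BALB/c pair, below the range of the other 16 arrays (5.39 to 6.25), and at 5.63 in SPRET/EiJ LDIR A, below the other 5 (6.04 to 6.77). *Psmb6* was at 5.17, 5.15 and 5.17, also below both ranges (5.33 to 5.83 and 5.67 to 6.05). *Psmb7* was at 2.69 and 2.63, inside the BALB/c range of 2.28 to 3.28, and at 2.83, below the SPRET/EiJ range of 3.43 to 4.21.

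*Tap1*, the subunit of the transporter with the wider spread here, was at 1.5 in sham A and 1.87 in LDIR B, 4.76-fold and 6.14-fold above the median of the other 16 BALB/c arrays (-1.38 to 0.21). In SPRET/EiJ LDIR A it was at 0.72, 2.44-fold above the median of the other 5 (-1.21 to -0.51). *Tap2*, its partner, did not separate the arrays: 5.21 and 5.16 lay within the other BALB/c arrays (3.59 to 5.30), and 4.28 lay within SPRET/EiJ (4.04 to 4.64). In BALB/c both arrays were still high for *Tap2*, 1.71-fold and 1.66-fold above the median of the other 16, with only 2-week LDIR A (5.30) above them. In SPRET/EiJ LDIR A *Tap2* was below the median of the other 5 (4.46). Tapasin was at 4.22 and 4.44 over 3.61 to 4.00 in BALB/c, and at 3.80 within 3.44 to 3.87 in SPRET/EiJ.

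Both heavy chain genes were above the other arrays of their strain on the 3 arrays, and the light chain gene was not. *H2-K1* probe 1 was at 7.43 and 7.52 over 6.74 to 7.34 in BALB/c, and at 8.30 over 7.62 to 7.89 in SPRET/EiJ. *H2-D1* was at 7.40 and 7.51 over 6.29 to 7.11 in BALB/c, and at 6.34 over 5.87 to 6.2 in SPRET/EiJ. *B2m* was at 7.75 and 7.80 inside the BALB/c range of 7.06 to 7.85, and at 7.19 inside the SPRET/EiJ range of 6.95 to 7.26. Heavy chain gaps to the strain median were 1.31- to 1.70-fold.

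*Nlrc5*, the transactivator, was at 3.22 in sham A and 3.23 in LDIR B on probe 1, 3.49-fold and 3.53-fold above the median of the other 16 BALB/c arrays (0.85 to 1.89). In SPRET/EiJ LDIR A it was at 1.30, 2.74-fold above the median of the other 5 (-0.51 to 0.11). Probe 2 read -2.47, -2.26 and -2.76 on these arrays, above -3.66 to -2.92 in BALB/c and -3.48 to -3.07 in SPRET/EiJ. *Irf1*, a transcription factor that drives class I genes, was at 4.44, 4.84 and 4.02 (other arrays 2.88 to 4.17 in BALB/c and 2.65 to 3.26 in SPRET/EiJ).

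Marker lists of other cell types were read on the same scale, as the mean over a list of each gene's difference from its BALB/c median. The 10 T lymphocyte genes stood at 4.83, 5.25 and 5.31 on the 3 arrays (sham A, LDIR B, SPRET/EiJ LDIR A) and between -0.42 and 0.70 on the other 21. The 6 B lymphocyte genes stood at 4.97, 5.09 and 4.69 (others -0.46 to 0.68), and the 7 measured lymph node stroma and follicle genes at 5.95, 6.33 and 3.34 (others -1.03 to 1.27). *Cd3d*, a T cell receptor subunit, was at 3.81, 4.36 and 4.45, with the other 16 BALB/c arrays from -3.86 to -1.32 and the other 5 SPRET/EiJ arrays from -2.98 to -2.20.

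Other leukocyte lists were high on these arrays as well, and gland lists were low or mixed. Pan-leukocyte genes stood at 3.94, 4.34 and 4.39, MHC class II genes at 3.76, 3.87 and 3.94, dendritic cell genes at 2.61, 2.81 and 2.23 and natural killer genes at 1.93, 1.95 and 1.25. Macrophage genes were at 0.24, 0.48 and 0.01, within the other arrays (-0.97 to 0.64). White adipocyte genes were at -1.26, -1.59 and -2.09, below the other 21 (-0.67 to 0.45), and mammary epithelium genes were at -0.40, -0.34 and -2.19, within the other 21 (-2.78 to 1.38).

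Class I genes took an intermediate place: their list stood at 0.92, 1.09 and 0.44 (others -0.45 to 0.29). The 22 interferon-induced genes were at 0.66, 0.42 and 0.71, with the other 21 arrays between -0.84 and 0.62. Regulators of class I transcription were at 0.92, 1.13 and 0.76 (others -0.51 to 0.29), and proteasome activator and constitutive proteasome genes at -0.22, -0.19 and -0.50 (others -0.20 to 0.35). The part of lymph node tissue in the members' levels was not tested; the methods do not say whether nodes were removed, and in bulk tissue more cells of a type and more RNA per cell cannot be told apart.

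**Figure D2:**
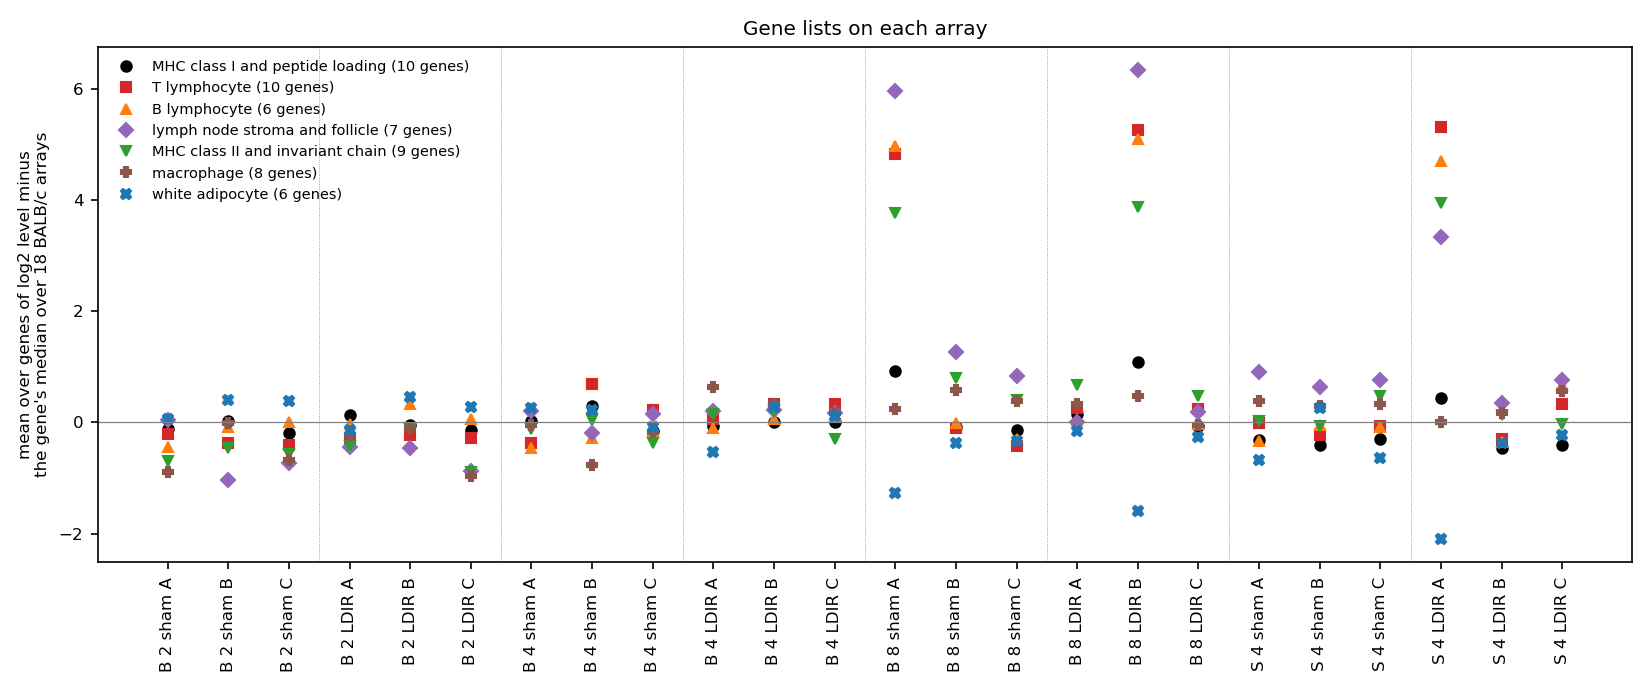
Mean log2 difference from the BALB/c median (vertical axis) of gene lists on each of the 24 arrays (horizontal axis), 1 point per list and array. On the 3 arrays T lymphocyte genes stand at 4.83, 5.25 and 5.31, while the class I genes stand at 0.92, 1.09 and 0.44.

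Without these arrays the relation to T lymphocyte markers was uneven among the members. Over the other 16 BALB/c arrays, 10 relations were computed, and *Psmb8* had r 0.73 with the T lymphocyte list (permutation p = 0.00069, adjusted 0.0069) and rho 0.69 (permutation p = 0.00354, adjusted 0.0354), which fell to r 0.46 without the 2 arrays farthest out. Within slide 1 (8 arrays) its r was 0.87 and within slide 2 (7 arrays) 0.77. *Tapbp* had r 0.68 (permutation p = 0.00305, adjusted 0.0152) and 0.70 without the farthest 2 arrays, but rho 0.45 (permutation p = 0.0819, adjusted 0.409), and its r was 0.94 within slide 1 and -0.06 within slide 2, so the relation held within 1 slide only. *Psmb9* had r 0.52 over the 16 arrays (permutation p = 0.0328, adjusted 0.109) and rho 0.35 (permutation p = 0.188, adjusted 0.475), with r 0.91 within slide 1 and 0.97 within slide 2. Without the farthest 2 arrays its r was 0.07, so that the pooled relation rested on those arrays. The other 7 members had adjusted permutation p of 0.181 or more for r over the 16 arrays. The r over the 16 arrays and their permutation p took no account of slide or group. Within slides 1 and 2, r was 0.80 and 0.83 for *Psmb10*, 0.65 and 0.76 for *H2-K1* and 0.47 and 0.87 for *Nlrc5*; for *H2-D1*, *B2m* and *Tap1* it was between -0.34 and -0.02 on both slides, and for *Tap2* 0.52 and -0.31.

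The strain comparison at 4 weeks asked how the glands of the sensitive and the resistant strain differ in sham mice and in exposed mice. In sham tissue *Nlrc5* was higher in BALB/c and *H2-K1* higher in SPRET/EiJ. *Nlrc5* probe 1 was at 1.42, 1.75 and 1.33 in BALB/c sham and at 0.11, -0.10 and -0.15 in SPRET/EiJ sham, and the groups did not overlap. The log2 difference was 1.55 (SE 0.19, 2.92-fold, limma adjusted p = 0.00294), and 1 fit of all 24 arrays raised the adjusted p to 0.0664. Slide as a block in that fit, added after seeing the data, left sham C alone to stand for BALB/c sham. The difference was then 1.95 (SE 1.24, limma adjusted p = 0.527). Its probe 2 differed by 0.07 (95% interval -0.40 to 0.54, limma adjusted p = 0.838), so that the 2 probes disagreed on the strains.

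*H2-K1* probe 1 was at 7.04, 7.34 and 6.94 in BALB/c sham and at 7.85, 7.89 and 7.79 in SPRET/EiJ sham, with no overlap. The log2 difference was -0.74 (SE 0.17, 1.67-fold, limma adjusted p = 0.0314). Leaving out 1 array at a time gave adjusted p of 0.0325 without BALB/c sham B and 0.0777 to 0.0972 without BALB/c sham A or C or any of SPRET/EiJ sham A, B and C. The fit of all 24 arrays kept it below the adjusted threshold (adjusted p = 0.0251). With slide as a block over all 24 arrays sham C alone stood for BALB/c sham. The value was then -0.74 (SE 0.48, limma adjusted p = 0.538), and -1.13 (SE 0.47, adjusted p = 0.304) without BALB/c 8-week LDIR B. Its probe 2 differed by -0.13 (95% interval -0.61 to 0.35), and this is the probe that shares bases with *H2-T23*. Among all 18 BALB/c and 6 SPRET/EiJ arrays probe 1 stayed apart by strain, at 6.74 to 7.52 and 7.62 to 8.30.

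With the strain thresholds of the study's methods (p under 0.001 and over 1.5-fold), limma called 1 of 13 member probes in sham tissue, *Nlrc5* probe 1, and 8.85% of all probes. At an adjusted p under 0.05 it called 2 of 13, and 18.7% of all probes, dim ones included, so the members' shares were near those of the whole array. Among only the probes well above background, 14.7% passed the p and fold thresholds and 31.6% the adjusted one, against 1 and 3 member probes. Groups did not overlap for 6 of 13 member probes and for 36.8% of all probes. The methods' t-test also called 1 member probe, and 4.94% of all probes. All SPRET/EiJ arrays were on slide 3 and no 4-week BALB/c array was, so slide 3 was joined to the others only through BALB/c 8-week LDIR, with A on slide 2 and B and C on slide 3. The fit of all 24 arrays with slide as a block gave 0 member probes by either threshold between strains, in sham tissue and after LDIR. Slide 1 was joined to slide 2 only through BALB/c 4-week sham, with A and B on slide 1 and C on slide 2. The slide-block values in sham tissue therefore used sham C alone of that group. LDIR B is 1 of the 3 arrays that stood apart, and the slide-block values rested on it: without it, a fit also added after seeing the data and again with 0 member probes by either threshold, *Nlrc5* in sham went from 1.95 to 0.84 (SE 1.18, limma adjusted p = 0.917) and *Tap1* from 0.30 to -0.77 (SE 1.03, limma adjusted p = 0.908).

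The remaining members did not pass in sham tissue. *Psmb9* probe 1 was 0.85 higher in BALB/c (limma adjusted p = 0.0756), *Psmb8* 0.64 (adjusted p = 0.16), *H2-D1* 0.60 (adjusted p = 0.11) and *Psmb10* 0.44 (adjusted p = 0.216), each without overlap of the groups. *Tap2* differed by 0.34, *B2m* by 0.25, *Tapbp* by 0.14 and *Tap1* by -0.17, with overlapping groups. Leaving out 1 array gave 0.58 to 1.00 for *Psmb9*, 0.38 to 0.80 for *Psmb8*, 0.43 to 0.74 for *H2-D1* and 0.26 to 0.54 for *Psmb10*. It gave 0.12 to 0.49 for *Tap2*, 0.16 to 0.38 for *B2m*, 0.010 to 0.22 for *Tapbp* and -0.40 to -0.048 for *Tap1*. Of the always-given companions, *Psmb7* had a log2 difference of -1.14 (limma adjusted p = 0.0368), and *Psmb5* (-0.64), *Psmb6* (-0.28) and *Irf1* (0.78) had adjusted p between 0.0911 and 0.392. The array's probes follow a reference sequence, and the part of strain sequence under a probe was not tested.

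Cell type marker lists were compared between the strains on the same arrays. By the p and fold thresholds 8.85% of all probes passed in sham tissue, 5.67% after LDIR and 7.84% after LDIR without SPRET/EiJ LDIR A. In sham tissue the median log2 difference, BALB/c minus SPRET/EiJ, was 1.58 over 8 mammary epithelium markers (0 called), 2.21 over 6 skeletal muscle markers (0 called), 0.89 over 6 natural killer markers and 0.72 over 7 dendritic cell markers. It was below 0 over the pan-leukocyte (-0.49), lymph node (-0.54), macrophage (-0.47), B lymphocyte (-0.041) and endothelium (-0.098) markers. Limma called *Itgax* (2.63) and *Clec9a* (2.38) of dendritic cells, *Eomes* (1.35, with 2 of 3 SPRET/EiJ arrays well above background) of natural killer cells, *Cd79b* (1.51) and *Cd79a* (-1.29) of B lymphocytes and *Plin1* (3.86) of adipocytes. *Plin1* was the 1 called of 6 adipocyte markers, whose median was 0.23. Of the lymph node list *Cr2* (-5.61) and *Ccl19* (-1.89) were lower, and *Tnfsf11* was at least 8.11-fold higher, with no SPRET/EiJ sham array well above background. T lymphocyte markers had a median of 0.10 in sham and -1.86 after LDIR, and the latter rested on SPRET/EiJ LDIR A, without which it was -0.00070. Mammary epithelium markers had a median of 1.76 after LDIR with *Elf5* (1.84) called, and of 1.52 with 0 of 8 called without that array. After LDIR limma also called 1 gene in each of 4 further lists: *Gzma* (2.11) of 6 natural killer markers (median -0.22), *Cd79a* (-1.73) of 6 B lymphocyte markers (median -1.54), *Cr2* (-5.61) of 7 lymph node markers (median -0.41) and *Plin1* (4.08) of 6 adipocyte markers (median 0.49). These medians rested on SPRET/EiJ LDIR A too: without it they were 0.36, 0.060, -0.033 and -0.029, *Cd79a* (-1.54, limma adjusted p = 0.0138) no longer passed the p threshold, *Gzma*, *Cr2* and *Plin1* still did, and *Ccl19* (-1.61) of the lymph node list and *Clec9a* (2.29) of the dendritic cell list passed as well. The part of cell make-up in the members' strain differences was not tested.

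After LDIR no member probe passed either threshold between strains, where 5.67% of all probes passed the p and fold thresholds and 11.1% the adjusted threshold in limma. Unadjusted p was under 0.05 for 2 of 13, against 25.0% of all probes, and the methods' t-test called 0, against 3.42% of all probes, with 3 under 0.05, against 24.2%. *Nlrc5* probe 1 was at 1.16, 1.73 and 1.53 in BALB/c LDIR and at 1.30, -0.51 and -0.43 in SPRET/EiJ LDIR, a difference of 1.35 (SE 0.51, limma adjusted p = 0.161). Only SPRET/EiJ LDIR A overlapped with BALB/c. *H2-K1* probe 1 was at 7.04, 7.25 and 6.99 against 8.30, 7.62 and 7.72, a difference of -0.79 (SE 0.26, limma adjusted p = 0.116), and in the fit of all 24 arrays its adjusted p was 0.0191.

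Without SPRET/EiJ LDIR A, an alternative chosen after seeing the data, limma called *Nlrc5* probe 1 by the p and fold thresholds, and *Psmb9* probe 2 from values not well above background in SPRET/EiJ, against 7.84% of all probes, and 5 by the adjusted threshold, against 19.6%. These 5 were *Nlrc5* probe 1 (1.95, SE 0.23, adjusted p = 0.007), *Psmb9* probe 2 (at least 1.1-fold, adjusted p = 0.0118), *Psmb8* (0.83, adjusted p = 0.0274), *Psmb9* probe 1 (0.72, adjusted p = 0.0453) and *H2-D1* (0.70, adjusted p = 0.0458), all higher in BALB/c. Neither remaining SPRET/EiJ LDIR array was well above background for *Psmb9* probe 2, so its difference is a bound, set against the lowest signal well above background on those arrays. *H2-K1* probe 1 was then at -0.58 (adjusted p = 0.0811). Whether LDIR A was kept decided if those genes passed. LDIR C, which remained, had the lowest share of probes well above background of all arrays (57.1%).

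**Figure D3:**
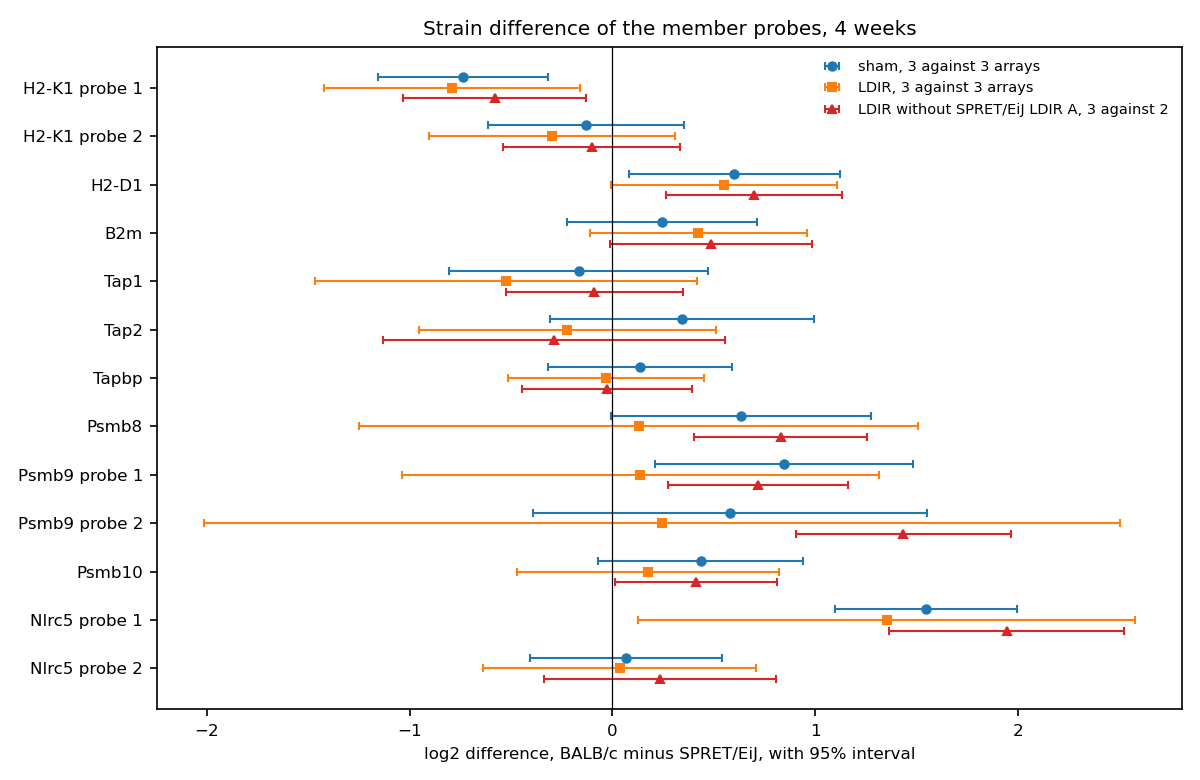
Log2 difference BALB/c minus SPRET/EiJ at 4 weeks (horizontal axis) with 95% interval for each of the 13 member probes (vertical axis), in sham and after LDIR. *Nlrc5* probe 1 is at 1.55 in sham and 1.35 after LDIR, *H2-K1* probe 1 at -0.74 and -0.79, and the intervals after LDIR are wider for *Psmb8* and *Psmb9*. Without SPRET/EiJ LDIR A, also shown, *Psmb9* probe 2 was not well above background in SPRET/EiJ.

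LDIR was compared with sham in each strain and week to ask whether exposure moved these genes. No member probe passed the LDIR thresholds of the methods (p under 0.05 and over 1.5-fold) in limma at any time in either strain. The shares of all probes that did were 3.13% at 2 weeks, 4.78% at 4 weeks and 1.80% at 8 weeks in BALB/c and 2.20% in SPRET/EiJ, with no probe at an adjusted p under 0.05; the smallest adjusted p over all probes was 0.488, 0.331, 1.0 and 0.972. Leaving out 1 array took the shares past the p and fold thresholds as high as 10.9% at 4 weeks (without sham C) and 3.31% at 8 weeks (without sham B) in BALB/c. In SPRET/EiJ it gave 4.66% without LDIR B, and 0 member probes were called in each of these fits. Unadjusted p was under 0.05 for 1 member probe in limma (*Psmb9* probe 2 at 2 weeks), where 5.01% of all probes were. The methods' t-test called no member probe, against 1.06% to 2.45% of all probes, and had 2 of 13 under 0.05 at 2 weeks, against 6.02%, and 0 in the other LDIR comparisons, against 1.87% to 5.43%.

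At 2 weeks in BALB/c the widest member difference was that of *Tap1*. It was at 0.12, -0.83 and -1.01 after LDIR and at -1.13, -0.92 and -1.38 in sham, a difference of 0.57 (SE 0.33, 95% interval -0.21 to 1.36). LDIR A alone lay above all sham arrays by a wide gap, and it was also the highest BALB/c array for *Tap2*, at 5.30. *Psmb10* was at 4.62, 4.73 and 4.69 after LDIR and 4.99, 5.01 and 4.76 in sham, lower with no overlap (-0.24, SE 0.14). *Psmb9* probe 2 was higher with no overlap (0.43, SE 0.16, limma adjusted p = 0.894), while its probe 1 differed by 0.008. Groups did not overlap for 11.6% of all probes at this time.

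At 4 weeks in BALB/c the member differences had a median of -0.049 over the 10 genes. *Tap2* was at 4.50, 3.59 and 4.47 after LDIR and 4.42, 5.16 and 4.58 in sham (-0.54, SE 0.33, 95% interval -1.32 to 0.25). Leaving out 1 array gave *Tap2* values from -0.69 to -0.24. *Tap1* differed by 0.23 (SE 0.19; 0.13 to 0.38 with 1 array left out) and the other 8 genes by -0.23 to 0.16. The groups overlapped for all 13 member probes, and they did not overlap for 12.2% of all probes. Slide 2 alone held both groups, with 3 LDIR arrays but only sham C, and there 7 of the 10 genes had the opposite sign, with *Psmb8* at 0.27 and *H2-D1* at 0.22, each resting on that 1 sham array.

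At 8 weeks in BALB/c each group held 1 of the arrays with high lymphocyte markers, and the spread was wide. *Nlrc5* probe 1 was at 1.55, 3.23 and 1.01 after LDIR and 3.22, 0.85 and 0.95 in sham, a difference of 0.26 (SE 0.86, 95% interval -1.86 to 2.37). *Psmb8* was at 3.21, 4.58 and 3.20 after LDIR and 4.35, 3.02 and 2.92 in sham (0.23, SE 0.57). *Tap1* was at 0.21, 1.87 and -0.29 and at 1.5, -0.08 and -0.44 (0.27, SE 0.75).

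Leaving out sham A and LDIR B, a choice made after seeing the data, kept 4 arrays and narrowed these intervals. *Nlrc5* was then at 0.38 (SE 0.26, 95% interval -0.32 to 1.08), *Psmb8* at 0.23 (SE 0.17), *Psmb9* at 0.31 (SE 0.19) and *Tap1* at 0.22 (SE 0.27). The widest member half-interval fell from 2.12 to 0.75, and limma called 0 member probes, with 0 at an unadjusted p under 0.05, against 4.37% of all probes past the thresholds. On these 4 arrays 3 of 10 T lymphocyte markers, *Cd3d* (0.95), *Cd3g* (0.87) and *Cd5* (0.79), were called higher after LDIR. The other cell type lists with calls there were dendritic cells, with *Ccr7* higher (0.88) and *Xcr1* called but not well above background on any of the 4, macrophages, with *C1qa* (-0.66) and *C1qb* (-0.65) lower, and lymph node, with *Cxcl13* (-1.02) and *Tnfsf11* (-4.70) lower; *H2-M5* of the class I-like list was called but not well above background on any of the 4. Each of these calls had a limma adjusted p of 0.950 to 0.968, and the arrays left out were picked for their high lymphocyte and lymph node markers. None of these marker genes was called with all arrays. Leaving out sham A alone gave *Nlrc5* 1.03 and leaving out LDIR B alone gave -0.39. Only LDIR A shared a slide with the sham arrays.

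In SPRET/EiJ at 4 weeks the sign of most members rested on LDIR A. *Psmb8* was at 4.53, 2.39 and 2.46 after LDIR and 2.68, 2.47 and 2.87 in sham, a difference of 0.45 (SE 0.58) with all arrays and -0.25 (SE 0.22) without LDIR A. *Nlrc5* probe 1 went from 0.17 (SE 0.50) to -0.43 (SE 0.20, 95% interval -0.93 to 0.08) and *Psmb9* from 0.48 to -0.10. With all arrays 9 of 10 genes were higher after LDIR, and without LDIR A 3 were higher and 7 lower.

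**Figure D4:**
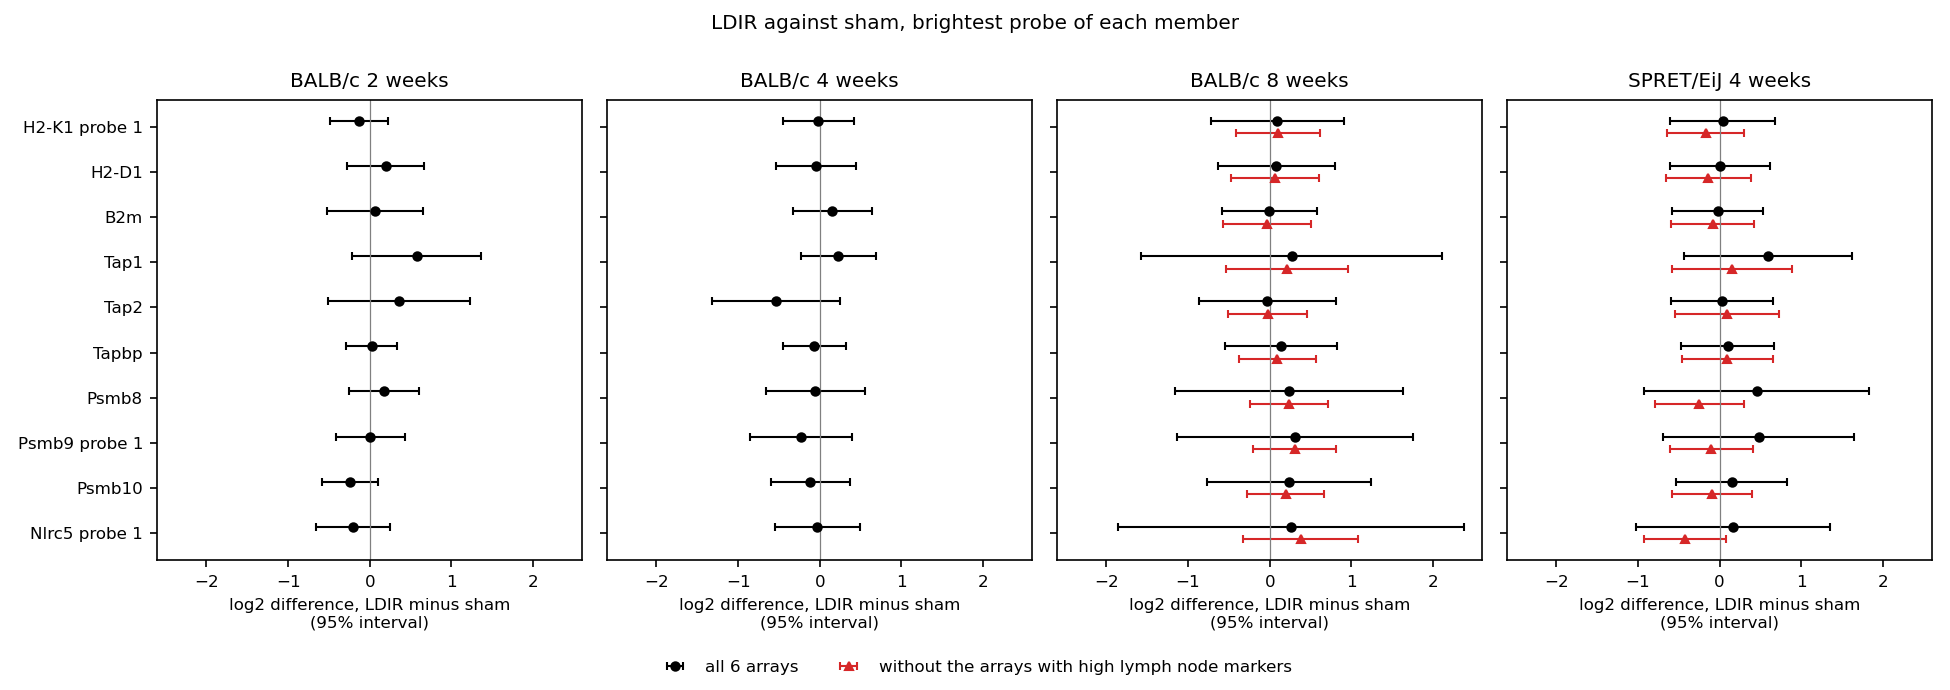
Log2 difference LDIR minus sham (horizontal axis) with 95% interval for the brighter probe of each member (vertical axis), 1 panel per strain and week, with all arrays and, where an array had high lymphocyte markers, without it. Every interval includes 0, and at 8 weeks *Nlrc5* spans -1.86 to 2.37 with all arrays and -0.32 to 1.08 without 2.

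The interaction asked whether LDIR moved the members differently in the 2 strains at 4 weeks. Limma gave 0 member probes at an adjusted p under 0.05 and 0 at an unadjusted p under 0.05, against 3.53% of all probes at an unadjusted p under 0.05 and over 1.5-fold; the smallest adjusted p of any probe was 0.377. The widest interaction values were *Psmb9* at -0.71 (SE 0.60) and *Tap2* at -0.56 (SE 0.42). Without SPRET/EiJ LDIR A *Psmb9* was at -0.13 and *Tap2* at -0.63, and 6 genes were above 0 where 1 was with all arrays. Of the other lists, 2 of 22 interferon-induced genes, *Oasl2* (1.61) and *Oas1a* (1.04), and 3 of 8 macrophage markers, *C1qa* (1.32), *Mrc1* (0.98) and *C1qb* (0.87), passed the p and fold thresholds, each with an adjusted p of 0.957. Without SPRET/EiJ LDIR A the counts were 6 of 22 and 1 of 8, against 4.50% of all probes. Also called without that array, and not with it, were *H2-M9* (0.70) and *H2-T3* (no BALB/c 4-week array well above background, so no size is given) of 24 class I-like genes, *Ciita* (0.77, with 1 of 2 SPRET/EiJ LDIR arrays well above background) of 23 regulators and *Rac2* (0.60) of 6 pan-leukocyte markers, each with an adjusted p of 0.906.

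Other genes of the pathway were read from fixed lists, with the brightest probe of each gene. In sham tissue limma called 3 higher and 2 lower in BALB/c of 24 measured class I and class I-like genes, by the p and fold thresholds, where 8.85% of all probes passed. *H2-T3*, a thymus leukemia antigen, was at least 4.41-fold higher in SPRET/EiJ (adjusted p = 0.000123) and *H2-Q1* at least 3.98-fold (adjusted p = 0.00996), and for neither gene did a BALB/c sham array stand well above background. *H2-Q8* was at 2.51 and *Mr1*, which presents vitamin B metabolites, at 2.77. Of 23 regulators of class I transcription 1 was called, a share below that of all probes: the class II transactivator *Ciita* (1.88, SE 0.19, adjusted p = 0.00173), and of 9 class II genes *H2-Eb1* was higher (1.95) and *H2-Ob* lower (-2.47). None of the 10 chaperone and trimming genes was called, and of 18 proteasome activator and constitutive proteasome genes *Pomp*, the proteasome maturation protein, was the 1 called (6.13, SE 0.18).

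Interferon-induced genes gave 4 higher and 1 lower of 22 in BALB/c sham, against 8.85% of all probes. *Mx1* was at -2.38 and *Rsad2*, both antiviral, at 2.31, *Xaf1* at 1.83 and *Irgm1* at 1.12. After LDIR 1 of the 22 passed between strains, *Oasl2* (1.67, SE 0.25, limma adjusted p = 0.00871), against 5.67% of all probes. That count rested on SPRET/EiJ LDIR A: without it 7 of the 22 were higher in BALB/c, against 7.84% of all probes, *Rsad2* (3.00), *Xaf1* (2.11) and *Mx2* (1.91) among them, and the list median went from 0.66 to 1.24. With all arrays the same class I-like list again gave 3 higher and 2 lower after LDIR, among them *Mr1* (2.89), *Hfe*, the hemochromatosis gene (2.31), *H2-T3* (at least 3.94-fold higher in SPRET/EiJ, with 0 of 3 BALB/c LDIR arrays above background) and *H2-Q1* (-2.52, with 1 of 3). *Pomp* was again called (6.34). Without that array the class I-like list gave 5 higher and the same 2 lower. The regulators, chaperones and class II genes gave none with all arrays. Without SPRET/EiJ LDIR A 3 of 23 regulators were higher, *Ciita* among them (2.64, with 1 of 2 SPRET/EiJ arrays well above background), and of 9 class II genes *H2-Eb1* was higher (2.54) and *H2-Ob* lower (-2.44), while the regulator median went from -0.12 to 0.33 and the class II median from -1.02 to 0.036.

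For LDIR against sham in BALB/c at 4 weeks, limma put 8 interferon-induced genes higher and 1 lower of 22 past the p and fold thresholds, against 4.78% of all probes, and none past the adjusted one. The fit behind these list counts did not include slide, and the LDIR arrays lay on slide 2 while sham A and B lay on slide 1. *Oasl2* was at 1.27 (SE 0.28), *Oas1a* at 1.23 (SE 0.26), *Usp18* at 1.1 (SE 0.20) and *Ifit3* at 1.08 (SE 0.23), with adjusted p of 0.641 to 0.685. On the same arrays the class I members gave none of 13, with *Irf1* at -0.13. Macrophage markers on these arrays gave 5 higher of 8, among them *C1qa* (1.04), *C1qb* (0.83), *Cd68* (0.82) and *Mrc1* (0.77). Of the mammary epithelium markers 2 of 8 were lower, *Krt14* (-0.92) and *Krt5* (-0.73), and of the pan-leukocyte markers 1 of 6 was higher, *Cd53* (0.68); the part of these cell types in the interferon genes was not tested. Among the regulators *Ifng* was lower (-1.14, SE 0.41, adjusted p = 0.783). At 2 weeks *Cxcl10* alone of the interferon-induced genes passed (0.60, SE 0.22, adjusted p = 0.894), and at 8 weeks none of the 22 did with all arrays. Without sham A and LDIR B *Cxcl9* passed at 8 weeks (0.97, SE 0.34, adjusted p = 0.968), 1 of 22 against 4.37% of all probes, and without LDIR A *Cxcl10* was lower after LDIR in SPRET/EiJ (-1.17, SE 0.30, adjusted p = 0.673), 1 of 22 against 3.77%. *H2-T3* of the class I-like list was also called lower there (-0.66, SE 0.23, adjusted p = 1.0), 1 of 24.

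*Psmb5*, *Psmb6* and *Psmb7* lay between -0.34 and 0.24 in all 4 LDIR comparisons, and *Irf1* between -0.13 and 0.35, none of them called by limma. The chaperone and trimming, constitutive proteasome, other class I and class II lists gave no gene past the thresholds in the BALB/c LDIR comparisons with all arrays. Of the marker lists, *Ms4a1* of B lymphocytes was at least 2.17-fold higher after LDIR in BALB/c at 2 weeks (limma adjusted p = 0.894), with 0 of 3 sham arrays well above background. Of 6 skeletal muscle markers, with a list median of 0.078, *Tnnt3* was called lower after LDIR in SPRET/EiJ (-1.29, limma adjusted p = 0.972), with 1 of 3 LDIR arrays well above background; without LDIR A, with 0 of 2 well above background, it was at least 1.69-fold lower. *Mylpf* of the same list, named here after its values were seen, was called higher (limma adjusted p = 0.972) with 1 of 3 LDIR arrays and 0 of 3 sham arrays well above background, so that no fold is given.

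Across groups a BALB/c 8-week group had the highest mean for all probes except *H2-K1* probe 1, but neighbours in the order overlapped. Of the 7 neighbouring pairs of groups, all overlapped for 11 of the 13 probes, and 6 did for *H2-D1* and *H2-K1* probe 1. *H2-K1* probe 1 had its highest mean in SPRET/EiJ LDIR. Without the 3 arrays of high lymphocyte markers an 8-week group had the highest mean for 4 of the 13 probes (*H2-D1*, *H2-K1* probe 2, *Tap1* and *Tapbp*). *Nlrc5* probe 1 was then highest in BALB/c 2-week sham (1.56) and *Psmb8* in BALB/c 4-week sham (3.31). No share over all probes is given for these counts of groups, so they are not read as particular to the members. On 8-week sham A 35.2% of all probes stood above the other 16 BALB/c arrays, and on 8-week LDIR B 13.2% did.

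How the members varied together was read over the 16 BALB/c arrays without high lymphocyte markers, as a description; these arrays share slides, times and tissue make-up. Over the 45 pairs of genes r ran from -0.64 to 0.87 with a median of 0.29, and 31 pairs were above 0. *H2-K1* probe 1 went with *Nlrc5* probe 1 (r 0.87, rho 0.74; 0.83 within slide 1 and 0.85 within slide 2), and *Psmb10* with *Psmb9* (r 0.87, rho 0.72; 0.82 and 0.88). *H2-D1* went with *Tap1* (r 0.79, rho 0.81; 0.71 and 0.89).

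The *H2-K1* probes did not go together over these BALB/c arrays. Probe 1 against probe 2 gave r -0.20 (rho -0.16; -0.29 within slide 1 and -0.13 within slide 2). Probe 2 instead followed *H2-D1* (r 0.96, rho 0.94; 0.98 on both slides), and probe 1 against *H2-D1* gave r -0.33. The *Nlrc5* probes gave r 0.67, but 0.03 within slide 1 and 0.91 within slide 2, and the *Psmb9* probes gave 0.32 (-0.01 and 0.63). The 5 other SPRET/EiJ arrays are too few for a correlation; among them sham B was highest for *H2-K1* probe 1 (7.89) and for *H2-D1* (6.2), and sham A for *H2-K1* probe 2 (6.13), so there probe 1 and *H2-D1* shared their highest array.

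**Figure D5:**
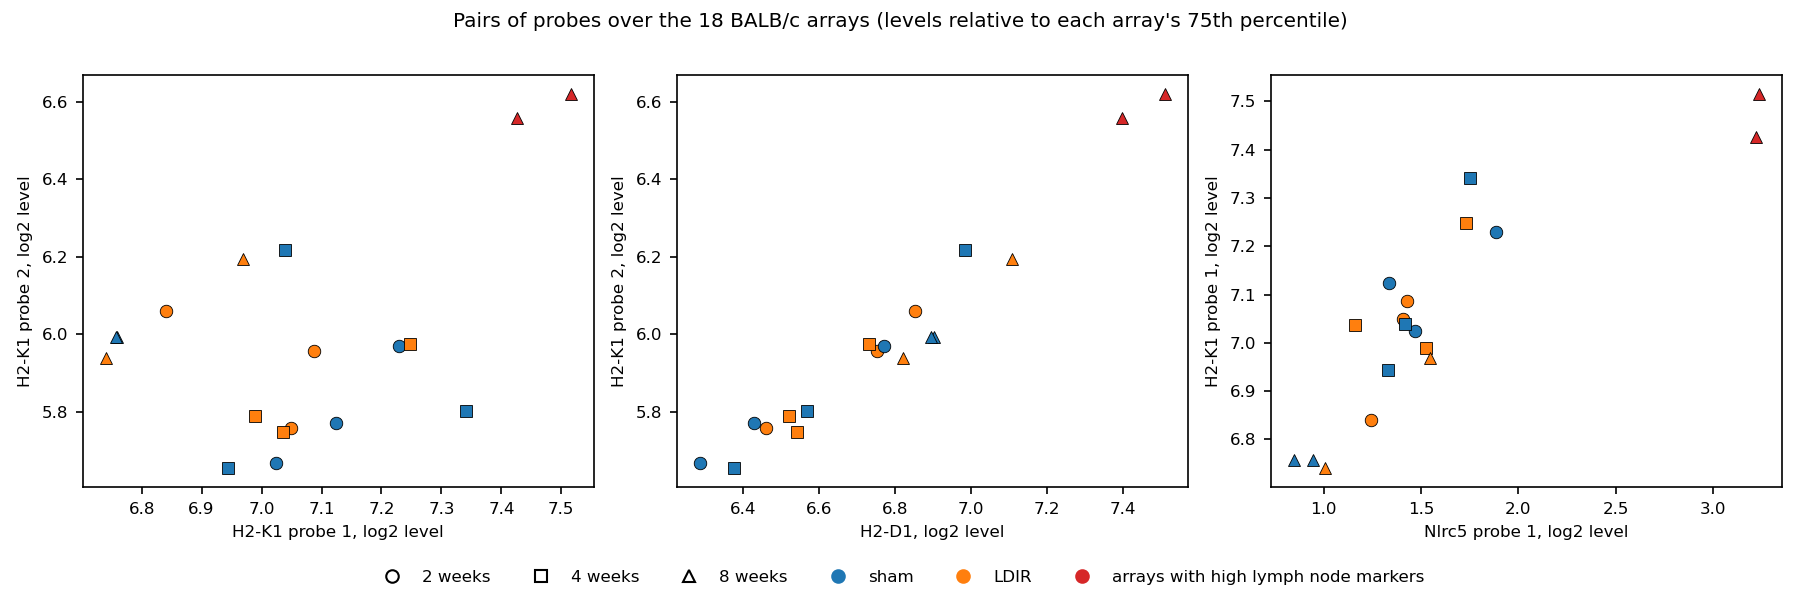
Log2 levels of pairs of probes against each other, 1 point per BALB/c array, with week, treatment and the arrays of high lymphocyte markers marked. Over the 16 other BALB/c arrays *H2-K1* probe 2 follows *H2-D1* (r 0.96) and not *H2-K1* probe 1 (r -0.20).

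Among 15584 coding genes, those most like each member were ranked by r over all 18 BALB/c arrays, and r over the 16 arrays without high lymphocyte markers is given. For *H2-D1* these were *Gm11127*, *ENSMUST00000174699* and the class I gene *H2-Q7*, at 0.97 each. For *H2-K1* they were *Mbnl1* (0.90), *Rasa2* (0.93) and *Psmb10* (0.84), and for *B2m* *Cst3* (0.89), *Tmem66* (0.77) and *Mapre1* (0.77). The transporter genes gave *Tec* (0.86), *H2-M2* (0.88) and *Lrch4* (0.85) for *Tap1*, and *Hip1r* (0.79), *Trim12c* (0.72) and *Bcl2l11* (0.69) for *Tap2*.

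For *Tapbp* the list was *Sbf1* (0.84), *Irf8* (0.86) and *Ltb* (0.90), and for *Psmb8* it was *Gm15056* (0.82), the T cell gene *Cd3d* (0.85) and *Ms4a4b* (0.83). *Psmb9* was most like *Rnf31* (0.90), *Psmb10* (0.87) and *Psmb8* (0.82), and *Psmb10* most like *Rnf31* (0.88), *Psmb9* (0.87) and *Flt3l* (0.88). *Nlrc5* gave *Fam26f* (0.85), *Ankrd44* (0.83) and *Hps3* (0.84). All but *Tap2* and *B2m* had a first-ranked r of at least 0.93 when the 2 high BALB/c arrays were included. The choice depended on those 2 arrays: ranked over the other 16, 11 of the 30 named genes stayed among the first 3, all 3 for *H2-D1* and 0 for *Tap1*, *Psmb10* and *Nlrc5*.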

How the data were processed

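Total RNA of 24 mammary glands was hybridised to 1-colour Agilent arrays and read with Feature Extraction 10.10.1.1 (submitters' processing notes and file headers). The deposited intensity of each spot was background-subtracted by that software. The authors' separate table of log2 values, centred per probe, was used as an alternative; 99.7% of its values lay within 0.01 of those computed here once 1 constant per array and per probe was removed. No per-sample column was left unused.

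From each array 62976 spots were read; control spots and 3777 outlier spots over all arrays were left out. Spots of a probe were averaged as log2 of the intensity minus the array's 75th percentile. Pairs of groups were tested in limma 3.58.1 under R 4.3.3 (lmFit and eBayes on the arrays compared, Benjamini-Hochberg over all probes, two-sided), in place of the methods' t-test, which was run as an alternative. Thresholds were p under 0.001 (strains) or 0.05 (LDIR) with over 1.5-fold, and adjusted p under 0.05. The scripts were tested on simulated data.

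All 10 members were named with every probe; a gene's value is that of its brightest probe. From each other list up to 4 genes past the thresholds with the largest change were named, and lists with none past are given by counts. Named regardless were *Psmb5*, *Psmb6*, *Psmb7* and *Irf1* (1 further gene of that rule is not reported here) and, per member the 3 genes of highest r. The members and lists were chosen with earlier results of these data known. Correlations used 100000 permutations. Tried as alternatives were the authors' log2 table, quantile normalization, normexp (offset 50) as the background step, outlier spots kept, a filter on dim probes, the t-test, 1 fit of all arrays, slide and replicate letter as blocks, each array left out, and, added after seeing the data, the arrays with high lymph node markers left out and slide as a block in the strain comparisons. Promoter sequences are from RefSeq (GRCm38.p6).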

Additional observations from a re-analysis of the deposited data

How the results depend on the processing

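Among the alternatives that left out no array, 594 member differences kept their direction and their side of the p and fold thresholds and 51 changed sign, none of which had passed those thresholds; the cause was not tested. In sham tissue 2 came to pass them, *H2-K1* with normexp (-0.74) and with quantile normalization (-0.69), and 3 no longer did, *Nlrc5* in the fit of all 24 arrays, with the replicate block and with slide as a block over all 24 arrays. In sham tissue the member probes called between strains were 2 with normexp, 2 with quantile normalization, 0 in 1 fit of all 24 arrays, 0 with the replicate block and 3 in 1 fit without the 3 arrays of high lymph node markers, and by adjusted p 4, 4, 1, 1 and 6. In the same order the share of all probes called was 10.0%, 8.82%, 12.4%, 5.73% and 17.1%, and by adjusted p 20.7%, 20.8%, 20.6%, 14.4% and 29.1%. With the filter on dim probes 1 member probe was called and 3 passed by adjusted p, against 14.7% and 31.6% of the probes kept. *Nlrc5* was 1.55 in the fit of all 24 arrays (adjusted p = 0.0664), and its adjusted p over all alternatives ran from 1.36e-05 to 0.917. After LDIR the counts were 2 called in 1 fit without those 3 arrays (14.4% of all probes), and by adjusted p 1 with all 24 arrays, *H2-K1* probe 1 (17.4%) and 6 without the 3 (25.9%), where 1 probe, *Psmb9* probe 2, was also called for LDIR in SPRET/EiJ (3.60% of all probes); it was not well above background on either remaining LDIR array or on sham B, so no size is given.

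The replicate letters did not pair the samples: same-lettered arrays correlated between -0.36 and 0.27 after group means were removed. With the replicate block *Nlrc5* was 1.55 in sham (adjusted p = 0.0179) and *H2-K1* -0.74 (adjusted p = 0.0698), and it left 1 member probe past the adjusted threshold.

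Slide as a fixed block, in the 6 arrays or in all 24, gave for LDIR in BALB/c at 4 weeks 0.15 (*H2-K1*), 0.22 (*H2-D1*), 0.020 (*Tapbp*), 0.27 (*Psmb8*), 0.065 (*Psmb9*), 0.088 (*Psmb10*) and 0.14 (*Nlrc5*), and at 8 weeks -0.011 (*H2-K1*), 0.026 (*B2m*), -0.12 (*Tap1*), -0.025 (*Tapbp*), -0.22 (*Psmb8*), -0.076 (*Psmb9*), -0.065 (*Psmb10*) and -0.13 (*Nlrc5*), each with the other sign and resting on 1 array, sham C at 4 weeks and LDIR A at 8 weeks. In the strain comparisons slide as a block over all 24 arrays gave 0 member probes called and 0 by adjusted p in sham (2.63% and 3.05% of all probes) and after LDIR (3.07% and 3.77%), with *Nlrc5* at 1.95 in sham, and turned *B2m* (-0.080) and *Tap1* (0.30) in sham, *Tap1* (0.058), *Tap2* (0.035) and *Tapbp* (0.21) after LDIR, and *H2-K1* (0.11) and *H2-D1* (0.22) in the interaction. Of BALB/c 4-week sham, the sham and interaction values of that fit used sham C alone. Without BALB/c 8-week LDIR B, 1 of 3 arrays that join slide 3 to the others, that fit again gave 0 and 0 (2.34% and 2.53% of all probes in sham, 2.75% and 3.19% after LDIR), with *Nlrc5* at 0.84 in sham, and turned *B2m* (-0.31) and *Tapbp* (-0.0066) in sham and *Psmb9* (-0.048) after LDIR. Normexp turned *Tapbp* at 2 weeks (-0.00083), *H2-K1* (0.044), *Tapbp* (0.012) and *Nlrc5* (0.024) at 4 weeks, *B2m* at 8 weeks (0.022) and *H2-K1* in the interaction (0.0099). Quantile normalization turned *H2-K1* (0.091), *H2-D1* (0.053) and *Nlrc5* (0.0050) at 4 weeks, *Tapbp* between strains after LDIR (0.097), and *H2-K1* (0.064) and *H2-D1* (0.025) in the interaction. The authors' table turned *Psmb9* at 2 weeks (-0.011) and *H2-D1* in SPRET/EiJ (-0.0035). Without the 3 arrays, SPRET/EiJ LDIR values turned for *H2-K1* (-0.17), *H2-D1* (-0.14), *Psmb8* (-0.25), *Psmb9* (-0.10), *Psmb10* (-0.091) and *Nlrc5* (-0.43), and the interaction for *H2-K1* (0.16), *H2-D1* (0.096), *Tap1* (0.079), *Psmb8* (0.20) and *Nlrc5* (0.40).

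Leaving out each array in turn gave 1 to 2 member probes by adjusted p in sham, 0 to 2 called and 0 to 5 by adjusted p after LDIR, the upper values without SPRET/EiJ LDIR A. Values that kept their sign also moved, as *Tap1* for LDIR in BALB/c at 2 weeks, from 0.22 to 0.79. Signs turned within these ranges of log2 difference. Between strains after LDIR the values ran, Tap2 from -0.38 to 0.075, Tapbp from -0.075 to 0.012, Psmb8 from -0.24 to 0.83 and Psmb9 from -0.17 to 0.72. For LDIR in BALB/c at 2 weeks the values ran, B2m from -0.15 to 0.20, Tap2 from -0.038 to 0.60, Tapbp from -0.012 to 0.053 and Psmb9 from -0.13 to 0.085. For LDIR in BALB/c at 4 weeks the values ran, H2-K1 from -0.099 to 0.10, H2-D1 from -0.18 to 0.12, Tapbp from -0.11 to 0.017, Psmb8 from -0.21 to 0.20, Psmb9 from -0.38 to 0.036, Psmb10 from -0.22 to 0.066 and Nlrc5 from -0.16 to 0.13. For LDIR in BALB/c at 8 weeks the values ran, H2-K1 from -0.13 to 0.32, H2-D1 from -0.10 to 0.25, B2m from -0.11 to 0.12, Tap1 from -0.37 to 0.85, Tap2 from -0.26 to 0.21, Tapbp from -0.053 to 0.28, Psmb8 from -0.23 to 0.69, Psmb9 from -0.17 to 0.78, Psmb10 from -0.093 to 0.52 and Nlrc5 from -0.39 to 1.03. For LDIR in SPRET/EiJ the values ran, H2-K1 from -0.17 to 0.17, H2-D1 from -0.14 to 0.089, B2m from -0.088 to 0.059, Tap2 from -0.14 to 0.16, Tapbp from -0.027 to 0.19, Psmb8 from -0.25 to 0.82, Psmb9 from -0.10 to 0.79, Psmb10 from -0.091 to 0.27 and Nlrc5 from -0.43 to 0.48. For the interaction the values ran, H2-K1 from -0.18 to 0.16, H2-D1 from -0.18 to 0.12, Tap1 from -0.59 to 0.079, Psmb8 from -0.87 to 0.20 and Nlrc5 from -0.51 to 0.40. The median over all probes at 8 weeks was -0.14, and 0.012 after quantile normalization. With 3 arrays a group, the 95% intervals in the report set the smallest difference that could be seen.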
